A study of Mus musculus with 8 samples.

Results

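The 41 collagen chain genes examined here encode the subunits of mouse collagens, and their transcripts were measured in 8 breast tumours from mice. Members were chosen by name, as the 41 collagen genes that own the RefSeq accession of at least 1 non-control probe of a 2-colour Agilent array, with no threshold on measured values. The choice to examine them was made with earlier results of these data known. They account for 58 of the 55681 distinct probes and for 41 of the 21368 genes that could be named. Of the 41 genes, 37 had a probe that could be tested and were each represented by 1 probe. Col2a1, Col10a1, Col19a1 and Col28a1 had no probe whose red signal cleared background on 4 or more of the 8 arrays.

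The FGFR1 KO group holds 4 tumours from K19-tva mice that carry floxed alleles of Fgfr1, the gene of fibroblast growth factor receptor 1 (fgfr1loxP/loxP). The WT group holds 4 tumours from K19-tva mice that served as controls, so that the K19-tva transgene is shared by both groups. All mice were FVB, and the floxed line had been moved from ICR to FVB by backcrossing. K19 is keratin 19, a keratin of epithelium, and tva is a receptor for avian retroviruses, so the transgene by its name puts that receptor under keratin 19 control. The agent that induced the tumours, the agent that recombined the floxed gene and the age of the mice were not stated in the labels. Each tumour was a bulk tissue piece, so fewer cells of a type and less RNA per cell cannot be told apart. Whether the 4 tumours of a group came from 4 animals is not stated. Each p-value therefore sets a difference only against the spread between these tumours, which may not be a spread between animals.

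Collagens are trimers of chains wound into a triple helix, and the chains are sorted into classes by the structure that the trimers build. Fibrillar collagens form the striated fibrils of connective tissue, and FACIT collagens sit on the surface of such fibrils. Type IV collagen forms the sheet of the basement membrane under epithelium and around vessels, type VI forms beaded microfilaments, and type VII forms the fibrils that anchor epidermis to dermis. Transmembrane collagens are carried on the cell surface. In the mammary gland, fibroblasts are known as the main makers of fibrillar and type VI collagen, while type IV chains are made by epithelial, myoepithelial and endothelial cells as well.

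The upstream sequences of 3 chains that read low together in FGFR1 KO tumours are shown because they are the promoter regions of the chains on which the results turn. Each is the 250 bases before the annotated start, 5′ to 3′, from RefSeq (GRCm38.p6): Col1a2 at chr6:4505368-4505617, plus strand, Col3a1 at chr1:45311288-45311537, plus strand, and Col6a1 at chr10:76726045-76726294, minus strand. Capitals mark the CCAAT motif, the TATAAA motif and the GGGCGG motif (GC box), searched on both strands.
Col1a2: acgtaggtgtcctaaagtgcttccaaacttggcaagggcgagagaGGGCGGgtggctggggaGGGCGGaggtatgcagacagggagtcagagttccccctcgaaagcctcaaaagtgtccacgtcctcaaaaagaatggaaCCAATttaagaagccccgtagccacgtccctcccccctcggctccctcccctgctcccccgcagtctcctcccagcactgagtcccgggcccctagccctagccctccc
Col3a1: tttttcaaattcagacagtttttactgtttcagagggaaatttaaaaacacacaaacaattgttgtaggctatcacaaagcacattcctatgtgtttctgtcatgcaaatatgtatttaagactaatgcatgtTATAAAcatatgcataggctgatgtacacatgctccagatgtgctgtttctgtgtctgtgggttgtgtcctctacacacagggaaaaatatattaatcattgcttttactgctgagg
Col6a1: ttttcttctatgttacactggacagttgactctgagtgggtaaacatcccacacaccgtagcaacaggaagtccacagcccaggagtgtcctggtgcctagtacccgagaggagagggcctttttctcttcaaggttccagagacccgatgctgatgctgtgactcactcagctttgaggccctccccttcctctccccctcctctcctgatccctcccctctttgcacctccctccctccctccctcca
The Col1a2 sequence held 1 CCAAT and 2 GGGCGG, that of Col3a1 held 1 TATAAA, and that of Col6a1 held 0 of these motifs, so the 3 sequences share none of them. Among all 32851 windows of the same length in the table, 33.8% held CCAAT, 12.4% held TATAAA and 32.7% held GGGCGG, on either strand. RefSeq windows were found for 32 of the 41 collagen genes, as 35 windows, of which 12 held CCAAT, 5 held TATAAA and 19 held GGGCGG. A motif match is a description of the letters only.

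A value is the log2 ratio of red to green signal, which is a difference of brightness within 1 array. Tumour RNA was taken as the red channel and the Universal Human Reference RNA as the green one, as the labelling protocol gives the dyes. Red varied more within groups than green, with a median SD over probes of 0.269 in FGFR1 KO and 0.367 in WT against 0.165 and 0.189 in green. Ratios of different chains are not compared with each other, because each probe has its own affinity for mouse tumour RNA and human reference RNA. All 8 arrays were on 1 slide, with FGFR1 KO in slide row 1 and WT in slide row 2, so that the position on the slide cannot be told apart from the genotype. In red, 68.9% to 83.9% of spots exceeded background clearly in FGFR1 KO, against 43.9% to 69.2% in WT. A rectangle of spots (the 240 rows from row 97 and the 82 columns from column 83, called the bright area here) held brighter negative controls on some WT arrays. Their median red signal over local background was 0 to 6 intensity units inside it in FGFR1 KO, against 35.5, 6.25, 41 and 6 in WT 1 to 4, and 1 to 7 outside it in FGFR1 KO, against 2.25 to 6.75 in WT. In green it was 16.5 to 24 inside in FGFR1 KO, against 35.5, 24, 43 and 25.5 in WT 1 to 4. Outside, green was 17 to 23 in FGFR1 KO and 21 to 23 in WT, so both channels were brighter there on WT 1 and WT 3. Of the 37 representative probes, 15 had a spot in the bright area, and 22 lay outside it. WT 2 had a mean correlation of 0.379 with the other arrays, against 0.598 to 0.713 for the rest. Skeletal muscle markers, with 12 of 14 listed genes tested, had a median of 8.61 on WT 2 and 1.77 on WT 1, against -0.38 to 0.49 over the FGFR1 KO arrays and -0.03 and 0.08 on WT 3 and WT 4. Luminal epithelial markers, with 11 of 12 tested, had medians of 2.35 to 3.08 in FGFR1 KO, against 1.57, -0.33, 2.35 and 2.74 in WT 1 to 4. The Fgfr1 probes differed by 0.00, -0.10 and -0.49 (FGFR1 KO minus WT), and where they lie relative to the deleted part is unknown here, so they do not check the labels.

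The comparison of FGFR1 KO with WT tumours asked whether collagen transcripts differ with Fgfr1 genotype, and differences are given as FGFR1 KO minus WT on the log2 scale. Chains of types I, III, V and VI, the collagens of the fibroblast matrix, differed by -1.93 to -0.52. The 6 type IV chains of the basement membrane differed by -0.61 to 0.69, 4 of them above 0. The 0.69 is that of Col4a5, which passed the filter through 4 FGFR1 KO arrays, with 1 WT array above background. The difference between classes was not tested. No chain passed the test in either direction. Limma called 0 of 37 chains at an adjusted p under 0.05 over all probes, against a background of 0.00% of the 16761 genes tested in each direction and 0.0101% of probes (4 of 39795), and the smallest adjusted p of a chain was 0.298. At an unadjusted p under 0.05, 13 of 37 chains were lower against 4.78% of all genes tested, and 2 were higher against 3.10%. The 2 higher chains, Col4a5 and Col20a1, were above background on 4 FGFR1 KO arrays but on 1 and 2 WT arrays. Over probes above background on all 8 arrays, 0 chains were higher at that threshold, against 2.47% of genes. Of the 37 chains, 26 were below 0, against 50.4% of genes, with a median of -0.52 against 0.00 for all genes. Below -1 lay 12 chains, against 3.19% of genes, and above 1 lay 0 chains, against 1.11%. On 3 chains every FGFR1 KO array was below every WT array (background 2.50%), and on 1 chain, Col20a1, every FGFR1 KO array was above (background 1.85%). The chains share 8 arrays and are not independent, and the list was chosen with earlier results of these data known. These counts therefore describe the list and are no test of it.

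FGFR1 KO 4 was the lowest of the 8 arrays on 18 of the 37 chains and on 6 of the 7 chains Col1a1, Col1a2, Col3a1, Col5a1, Col6a1, Col6a2 and Col6a3. WT 2 was the lowest on 7 chains and FGFR1 KO 1 on 6. WT 3 was the highest on 16 chains. Without FGFR1 KO 4, 24 of 37 chains were below 0, with a median of -0.39, against 49.5% of genes. Then 8 were lower at an unadjusted p under 0.05, against 3.40% of genes. The map of the 37 chains by array shows this column by column.

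**Figure D1:**
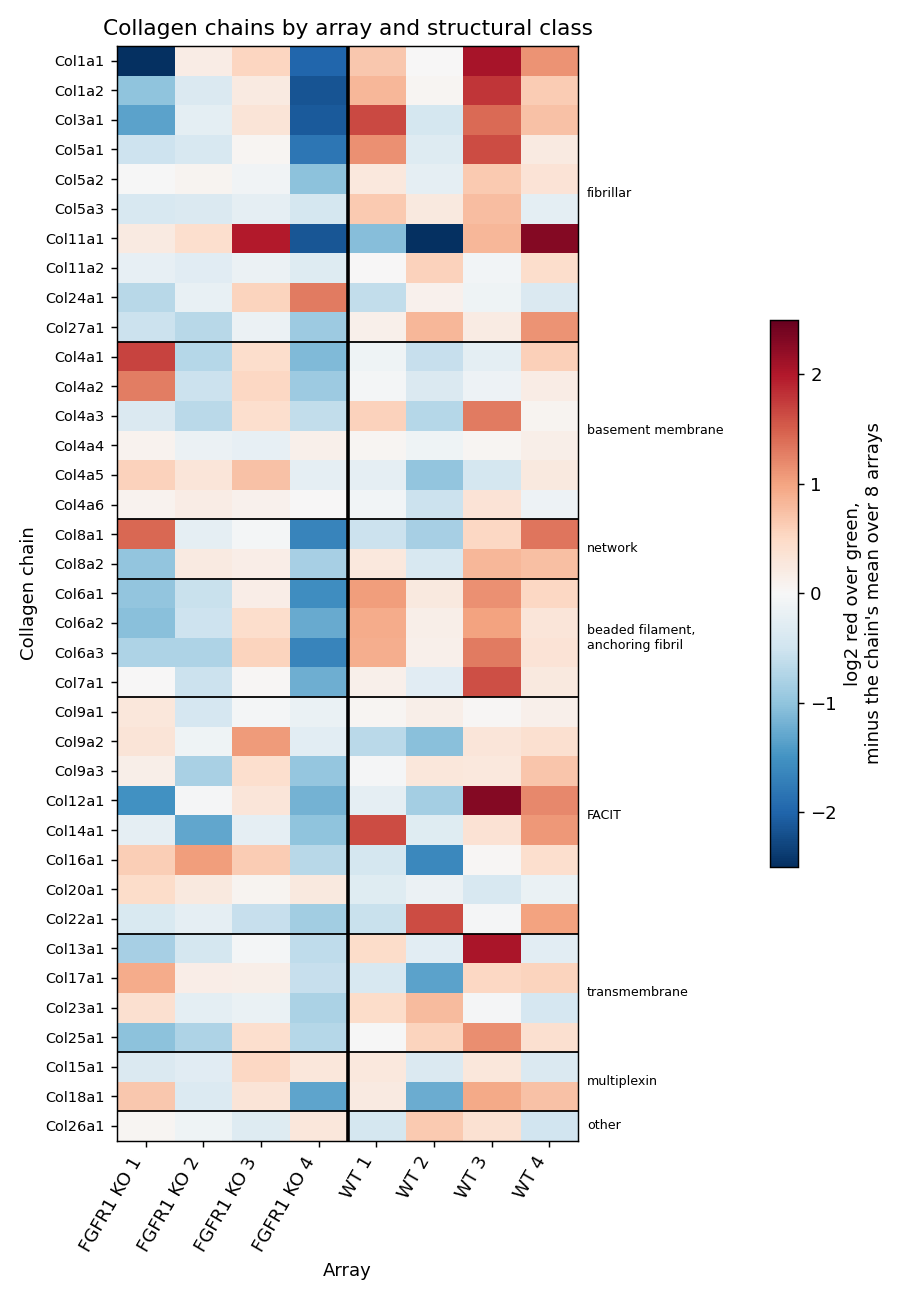
Heat map of the 37 tested collagen chains (rows, grouped by structural class) on the 8 arrays (columns, FGFR1 KO 1 to 4 left of WT 1 to 4). Colour is log2 red over green minus the chain's own mean over 8 arrays, with blue below and red above that mean; FGFR1 KO 4 is the lowest array on 18 of 37 chains and WT 3 the highest on 16.

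Fibrillar chains had 8 of 10 tested members below 0, a median of -0.93 and 0 called. Col2a1, the main cartilage chain, was above background on 1 FGFR1 KO array and 2 WT arrays and was not tested. Of the 10, 7 were lower at an unadjusted p under 0.05. Their median per array was -0.38, -0.40, -0.31 and -0.87 in FGFR1 KO 1 to 4, against 0.17, -0.06, 0.62 and 0.01 in WT 1 to 4, and the groups did not overlap.

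Col1a1, which encodes the α1 chain of type I collagen, the main fibril former of connective tissue, read -3.85, -1.08, -0.72 and -3.24 in FGFR1 KO 1 to 4, against -0.58, -1.25, 0.80 and -0.15 in WT 1 to 4. FGFR1 KO 1 and 4 were far below the rest, and FGFR1 KO 2 and 3 lay within the WT range. The mean was -2.22 ± 1.56 in FGFR1 KO and -0.29 ± 0.86 in WT (SD, n = 4 each), a difference of -1.93 ± 0.74 (SE) or 0.263 times the WT level (95% confidence interval -3.61 to -0.25; limma adjusted p = 0.54). Col1a2 encodes the partner α2 chain and read -2.65, -2.02, -1.42 and -3.82 in FGFR1 KO 1 to 4, against -0.82, -1.60, 0.14 and -1.02 in WT 1 to 4. Its difference was -1.65 ± 0.53 (SE), with limma adjusted p = 0.455, and the groups overlapped only through FGFR1 KO 3 and WT 2. Col3a1 encodes the type III chain, which is laid down in the same fibrils as type I. It read -2.54, -1.46, -0.89 and -3.30 in FGFR1 KO 1 to 4, against 0.44, -1.65, 0.21 and -0.49 in WT 1 to 4, a difference of -1.68 ± 0.60 (SE) (limma adjusted p = 0.51), with WT 2 the lowest WT array. None of the probes of these 3 chains lay in the bright area. Their exact permutation p was 0.114, 0.0571 and 0.0857 in the order given, two-sided.

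Type V chains are incorporated into type I fibrils and are known to limit their diameter. Col5a1 read -2.58, -2.46, -2.01 and -3.88 in FGFR1 KO 1 to 4, against -0.92, -2.39, -0.43 and -1.84 in WT 1 to 4. FGFR1 KO 3 and WT 2 gave the overlap, and the difference was -1.34 ± 0.50 (SE). Col5a2 differed by -0.52 ± 0.28 (SE), and both probes lay in the bright area. Without FGFR1 KO 4, Col5a2 differed by -0.26. Col5a3, outside it, read -0.35, -0.31, -0.18 and -0.39 in FGFR1 KO 1 to 4, against 0.71, 0.29, 0.82 and -0.19 in WT 1 to 4, a difference of -0.71 ± 0.22 (SE) (limma adjusted p = 0.454), and WT 4 was the 1 WT array within the FGFR1 KO range. Col5a2 lies next to Col3a1 in the genome, and the 2 neighbours differed by -0.52 and -1.68.

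Of the remaining fibrillar chains, Col27a1, best known from cartilage, read 0.18, 0.03, 0.58 and -0.18 in FGFR1 KO 1 to 4, against 0.85, 1.56, 0.93 and 1.85 in WT 1 to 4. All 4 FGFR1 KO arrays were below all WT arrays, and the difference was -1.14 ± 0.26 (SE) (exact permutation p = 0.0286, two-sided, the smallest that 4 against 4 arrays allow, and limma adjusted p = 0.298). Any chain without overlap has this permutation p, so it adds nothing to the lack of overlap. The Col27a1 probe lay in the bright area and was well above background on 2 of 4 WT arrays. WT 1 and WT 3 had the brightest negative controls there. Without WT 1 it differed by -1.29 and without WT 3 by -1.26, each time with the other of them kept. Col27a1 had no tested probe outside the area, so the part of the bright area in its difference was not tested. Col11a2, an α2 chain of type XI collagen, also did not overlap between the groups and differed by -0.47 ± 0.18 (SE) with a probe in the same area. With red signal alone it differed by 0.12, where the median of all genes was 0.10. Col11a1, a type XI chain known from cartilage and from activated tumour fibroblasts, ranged from 0.79 to 4.91 in FGFR1 KO and from 0.40 to 5.22 in WT, a spread within each group far larger than its difference of 0.24 ± 1.12 (SE). Col24a1 differed by 0.49 ± 0.40 (SE), and by 0.14 without FGFR1 KO 4.

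**Figure D2:**
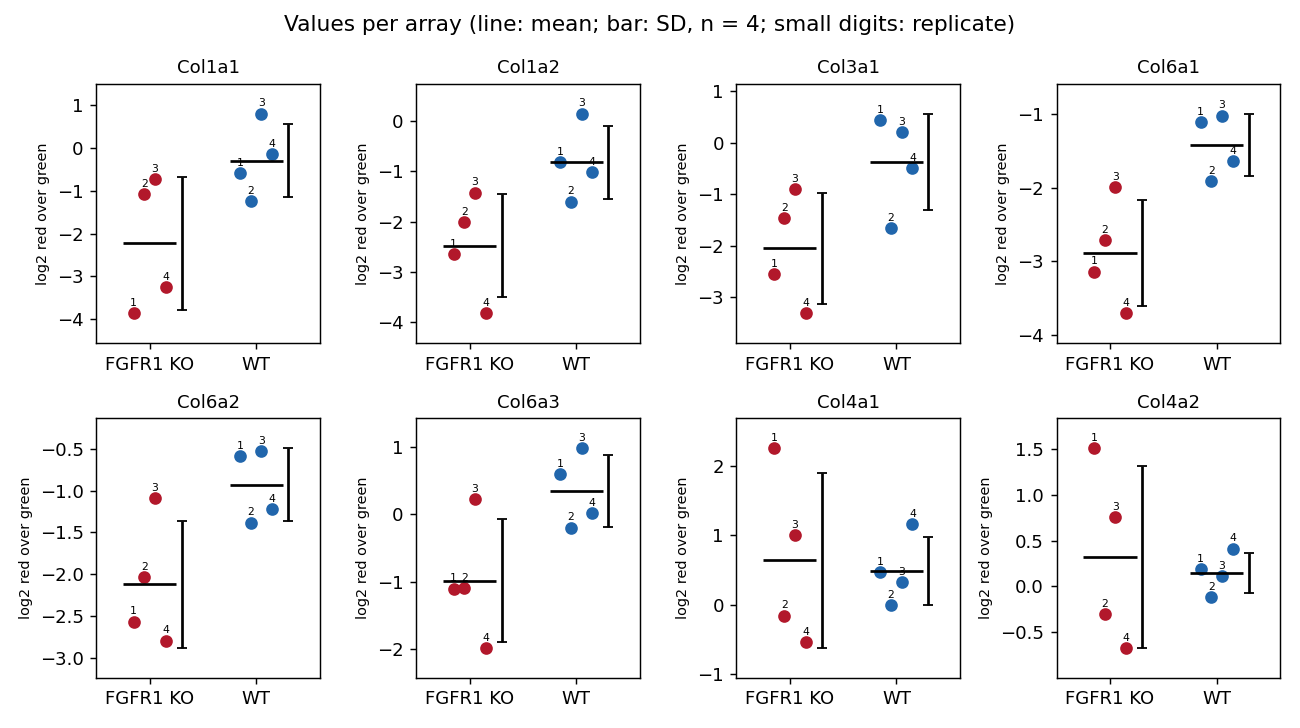
Log2 red over green per array for Col1a1, Col1a2, Col3a1, the 3 type VI chains, Col4a1 and Col4a2, with FGFR1 KO left of WT in each panel; lines are means, bars are SD (n = 4) and digits are replicate numbers. FGFR1 KO 4 is the lowest array for 7 of the 8 chains, and FGFR1 KO 1 is the lowest for Col1a1 and the highest for both type IV chains.

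Type VI chains, which form the beaded filaments that link fibrils to cells, had all 3 members below 0. Col6a1 read -3.14, -2.72, -2.00 and -3.71 in FGFR1 KO 1 to 4, against -1.10, -1.91, -1.02 and -1.64 in WT 1 to 4. All 4 FGFR1 KO arrays were below all WT arrays, with a mean of -2.89 ± 0.72 in FGFR1 KO and -1.42 ± 0.43 in WT (SD, n = 4 each) and a difference of -1.47 ± 0.36 (SE) or 0.36 times the WT level (exact permutation p = 0.0286, two-sided; limma adjusted p = 0.346). Its probe lay outside the bright area and was well above background on all 8 arrays. Col6a2 is the neighbouring gene on the chromosome and encodes the α2 chain of the same trimer. It read -2.56, -2.03, -1.09 and -2.79 in FGFR1 KO 1 to 4, against -0.59, -1.38, -0.53 and -1.22 in WT 1 to 4, a difference of -1.19 ± 0.38 (SE), and FGFR1 KO 3 was the 1 FGFR1 KO array within the WT range. Col6a3, which encodes the long α3 chain, read -1.10, -1.10, 0.23 and -1.98 in FGFR1 KO 1 to 4, against 0.60, -0.20, 0.98 and 0.02 in WT 1 to 4 and differed by -1.33 ± 0.45 (SE), again with FGFR1 KO 3 within the WT range. FGFR1 KO 4 was the lowest array on each of the 3 chains. The probes of Col6a2 and Col6a3 lay in the bright area, and neither gene had a tested probe outside it. Their exact permutation p was 0.0857 each, two-sided.

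Col7a1 encodes the anchoring fibril chain, made by epithelium and fibroblasts. It read 0.83, 0.30, 0.86 and -0.39 in FGFR1 KO 1 to 4, against 0.96, 0.55, 2.44 and 1.07 in WT 1 to 4. The difference was -0.86 ± 0.43 (SE), with FGFR1 KO 4 the lowest and WT 3 the highest, and it was -0.46 without WT 3. Together the 3 type VI chains and Col7a1 were 4 of 4 below 0 with a median of -1.26, and 0 were called.

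Type IV chains of the basement membrane lay on both sides of 0. Of 6 tested, 4 were above 0, the median was 0.17 and 0 were called, and without FGFR1 KO 1 the median was -0.16. Col4a1 and Col4a2 encode the main vascular and epithelial basement membrane trimer and are transcribed head to head, and their 300-base RefSeq promoter windows overlap by 78 bases. Col4a1, with 4 of its 10 spots in the bright area, read 2.25, -0.16, 1.00 and -0.54 in FGFR1 KO 1 to 4, against 0.46, -0.01, 0.32 and 1.15 in WT 1 to 4, a difference of 0.15 ± 0.57 (SE). Col4a2 read 1.51, -0.30, 0.76 and -0.67 in FGFR1 KO 1 to 4, against 0.18, -0.12, 0.11 and 0.41 in WT 1 to 4, a difference of 0.18 ± 0.43 (SE). On both chains FGFR1 KO 1 was the highest array and FGFR1 KO 4 the lowest, so the spread within FGFR1 KO (SD 1.26 and 0.995) was larger than that within WT (SD 0.489 and 0.218) and larger than the differences. The 95% confidence intervals, -1.13 to 1.44 for Col4a1 and -0.81 to 1.16 for Col4a2, both include the -0.71 of Col5a3 and exclude the point estimates of Col1a1, Col1a2, Col3a1, Col5a1 and the 3 type VI chains. The intervals of those chains overlap both, such as -3.61 to -0.25 for Col1a1 and -2.30 to -0.65 for Col6a1. No difference between chains was tested. Without FGFR1 KO 1 the differences of Col4a1 and Col4a2 turned to -0.38 and -0.22.

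The other type IV chains form the specialised trimers of kidney, lung and some epithelia. Col4a5 read 0.70, 0.42, 0.84 and -0.11 in FGFR1 KO 1 to 4, against -0.10, -0.86, -0.32 and 0.37 in WT 1 to 4, a difference of 0.69 ± 0.29 (SE) (limma adjusted p = 0.577). Its probe was well above background on 4 FGFR1 KO arrays but on 1 WT array, so the WT level rests on dim spots. Col4a3 read -0.02, -0.33, 0.77 and -0.28 in FGFR1 KO 1 to 4, against 0.91, -0.37, 1.64 and 0.41 in WT 1 to 4, a difference of -0.61 ± 0.42 (SE) with a probe in the bright area, and of -0.28 without WT 3. Col4a6 differed by 0.20 ± 0.19 (SE) on the representative probe and by 1.27 ± 0.62 (SE) on a second probe outside the bright area, where WT 2 read -0.84. Col4a4 differed by -0.06 ± 0.14 (SE).

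**Figure D3:**
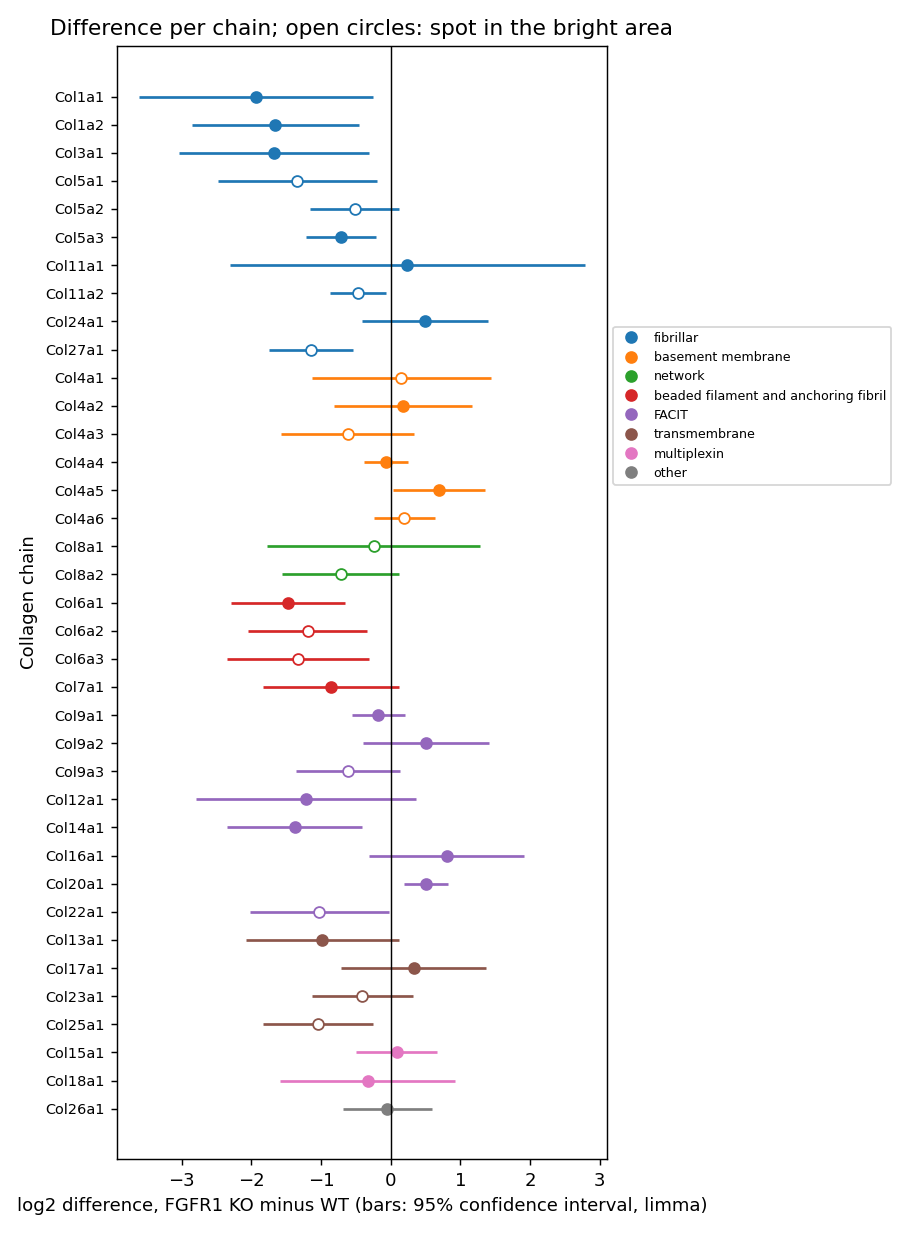
Difference per chain, FGFR1 KO minus WT on the log2 scale, with 95% confidence intervals from limma (n = 4 per group), coloured by class; open circles have a spot in the bright area. Intervals of Col1a1, Col1a2, Col3a1 and the type VI chains lie below 0 before adjustment, and those of Col4a1 and Col4a2 span 0.

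FACIT chains lay on both sides of 0. Of 8 tested, 5 were below 0, with a median of -0.39 and 0 called, and Col19a1 was above background on 0 arrays and not tested. Col14a1, which encodes a chain that binds the surface of type I fibrils, read 2.61, 1.54, 2.60 and 1.83 in FGFR1 KO 1 to 4, against 4.46, 2.53, 3.19 and 3.91 in WT 1 to 4. FGFR1 KO 1 and 3 lay within the WT range through WT 2, and the difference was -1.38 ± 0.43 (SE) (limma adjusted p = 0.452). A second probe of Col14a1 gave -0.67 ± 0.21 (SE), the same direction. The green signal of the representative probe was above background on 0 of 8 arrays, and Agilent's log ratio gave -0.71. Col12a1, the related fibril-associated chain of tendon and stroma, differed by -1.22 ± 0.70 (SE), with 2.66 on WT 3, and by -0.65 without that array.

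Col20a1 was the 1 chain higher on every FGFR1 KO array than on any WT array. It read 0.19, -0.02, -0.20 and -0.03 in FGFR1 KO 1 to 4, against -0.58, -0.43, -0.67 and -0.43 in WT 1 to 4, a difference of 0.51 ± 0.14 (SE) (exact permutation p = 0.0286, two-sided; limma adjusted p = 0.402). A second probe of the gene, in the bright area, differed by -0.36 ± 0.23 (SE), so its 2 probes disagreed in direction. The representative probe was well above background on 4 FGFR1 KO arrays and 2 WT arrays. Col16a1, a chain found near fibrils and microfibrils, differed by 0.80 ± 0.49 (SE), and its other 2 probes by 0.33 and 1.13, with WT 2 the lowest array on all 3 probes, and it differed by 0.40 without WT 2. Of the type IX chains of cartilage, Col9a2 differed by 0.51 ± 0.40 (SE) (0.24 without FGFR1 KO 3 and 0.25 without WT 2), Col9a3 by -0.61 ± 0.33 (SE) and Col9a1 by -0.18 ± 0.17 (SE). A second Col9a1 probe gave 0.72 ± 0.66 (SE), and Col9a3 turned to 1.43 with Agilent's own ratio, so neither has a settled direction. Col22a1, known from tissue junctions of muscle, differed by -1.02 ± 0.44 (SE) with a dim probe in the bright area, well above background on 2 arrays of each group, and its highest reading was 2.00 on WT 2, without which it differed by -0.65.

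Among transmembrane chains, 3 of 4 were below 0, with a median of -0.69 and 0 called. Col25a1, known from neurons, read 0.38, 0.62, 1.81 and 0.69 in FGFR1 KO 1 to 4, against 1.38, 1.96, 2.55 and 1.80 in WT 1 to 4, a difference of -1.05 ± 0.35 (SE) on a probe in the bright area, and 0.31 ± 0.34 (SE) on its other tested probe outside that area. Col13a1, a chain of cell adhesion sites, read -0.69, -0.30, 0.09 and -0.50 in FGFR1 KO 1 to 4, against 0.59, -0.13, 2.19 and -0.13 in WT 1 to 4. Its difference was -0.98 ± 0.48 (SE), and -0.46 without WT 3, the highest array. Col17a1 encodes a hemidesmosome protein of basal epithelium and read 1.81, 1.06, 1.03 and 0.31 in FGFR1 KO 1 to 4, against 0.50, -0.45, 1.41 and 1.44 in WT 1 to 4. The difference of 0.33 ± 0.46 (SE) was smaller than the spread within either group. Col23a1 differed by -0.41 ± 0.32 (SE), and by -0.21 without FGFR1 KO 4 or -0.21 without WT 2, with its other probes at -0.04 and 0.34.

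Network chains of the short-chain type were represented by Col8a1 and Col8a2, found in vessel walls and the cornea, and Col10a1, the growth plate chain, was above background on 0 arrays. Col8a2 read 0.15, 1.36, 1.31 and 0.31 in FGFR1 KO 1 to 4, against 1.40, 0.74, 1.98 and 1.89 in WT 1 to 4, a difference of -0.72 ± 0.37 (SE), and a second probe outside the bright area gave -0.44 ± 0.23 (SE). Col8a1 read 1.55, -0.10, 0.05 and -1.55 in FGFR1 KO 1 to 4, against -0.43, -0.72, 0.63 and 1.44 in WT 1 to 4, a difference of -0.24 ± 0.67 (SE) with wide overlap. The multiplexins Col15a1 and Col18a1 belong to basement membrane zones, and Col18a1 is the source of endostatin. Col15a1 read 0.34, 0.42, 1.21 and 0.99 in FGFR1 KO 1 to 4, against 0.97, 0.34, 0.98 and 0.33 in WT 1 to 4, a difference of 0.09 ± 0.26 (SE). Col18a1 read -0.02, -1.03, -0.38 and -2.01 in FGFR1 KO 1 to 4, against -0.47, -1.94, 0.25 and 0.04 in WT 1 to 4, a difference of -0.33 ± 0.55 (SE), with FGFR1 KO 4 and WT 2 the 2 lowest arrays. Col26a1, outside these classes with Col28a1, which was above background on 3 FGFR1 KO arrays and 0 WT arrays and not tested, read 0.03, -0.14, -0.34 and 0.26 in FGFR1 KO 1 to 4, against -0.47, 0.62, 0.35 and -0.50 in WT 1 to 4 and differed by -0.05 ± 0.28 (SE) on a probe above background on 3 FGFR1 KO arrays and 1 WT array.

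Spots in the bright area were set against the rest. The 22 chains with probes outside it had 13 members below 0 and a median of -0.12, and the 15 with a spot inside it had 13 below 0 and a median of -0.61. The share of all genes below 0 was 50.4% with all spots and 43.6% with the area left out. The share among genes with a spot inside the area was not computed, so the 13 of 15 cannot be read as particular to collagen chains. With the area left out and other probes used where a gene had one, 15 of 27 chains were below 0, against 43.6% of genes, with a median of -0.05. The 6 fibrillar chains then left had a median of -1.18, and the FACIT and transmembrane medians turned to 0.17 and 0.13. Spots were dropped after normalization, so the values of probes outside the area could not change. Col1a1, Col1a2, Col3a1 and Col6a1 were measured outside it, and their values under this setting are no check on the bright area. The 15 chains with a spot inside it include Col5a1, Col5a2, Col6a2, Col6a3, Col27a1, Col11a2, Col22a1 and Col25a1. The part of the bright area in their readings was not tested. The plot of class medians under other settings shows which classes cross 0.

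**Figure D4:**
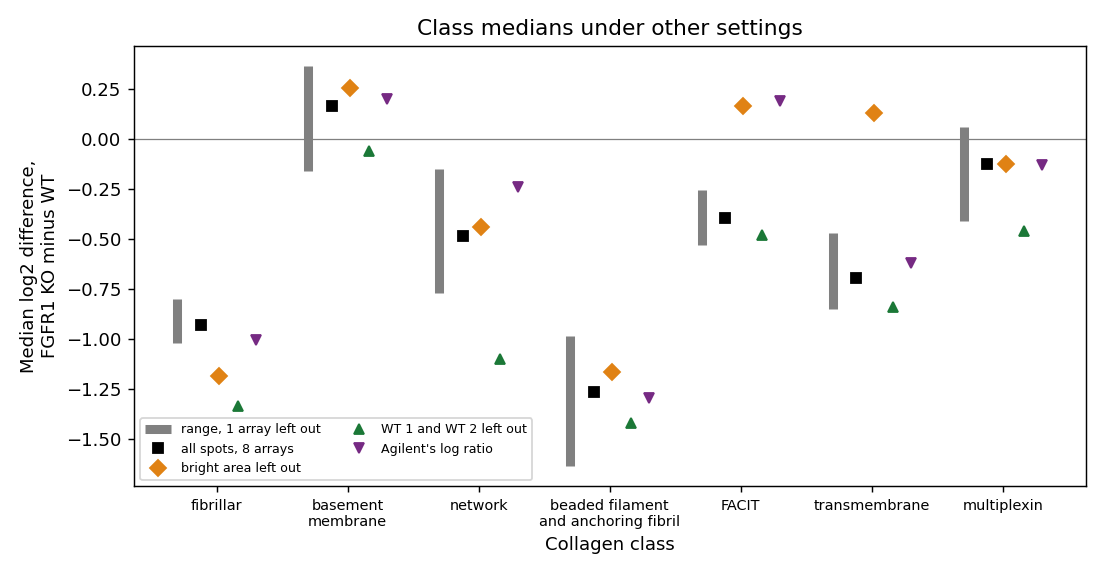
Median difference of each collagen class, FGFR1 KO minus WT on the log2 scale: all spots (squares), bright area left out (diamonds), WT 1 and WT 2 left out (triangles up), Agilent's log ratio (triangles down) and the range with 1 array left out (grey bars). Fibrillar medians run from -1.34 to -0.80, type VI with VII from -1.64 to -0.99 and network, of at most 2 chains, from -1.10 to -0.15, all below 0. Basement membrane, FACIT, transmembrane and multiplexin medians cross 0.

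Genes that make and bind collagen were compared from lists chosen for their roles. Of 26 genes of collagen folding, processing and cross-linking, 24 were tested, 18 were below 0, the median was -0.19 and 0 were called. Loxl1, a lysyl oxidase that cross-links matrix fibres, read -0.97, -1.26, -0.52 and -0.99 in FGFR1 KO 1 to 4, against 0.88, -0.14, 0.39 and -0.39 in WT 1 to 4, lower on every FGFR1 KO array than on any WT array, a difference of -1.12 ± 0.29 (SE). P3h2, a prolyl 3-hydroxylase known to act on type IV collagen, read 0.64, 1.02, 1.10 and 1.44 in FGFR1 KO 1 to 4, against 0.47, -0.25, 0.21 and 0.46 in WT 1 to 4, higher on every FGFR1 KO array than on any WT array, a difference of 0.83 ± 0.22 (SE). Of 10 collagen receptor genes, 9 were tested, 7 were below 0 and the median was -0.09, with 0 called. Itga11, an integrin of fibroblasts that binds fibrillar collagen, differed by -0.54 ± 0.27 (SE), and Ddr1, a collagen receptor kinase of epithelium, by 0.58 ± 0.32 (SE).

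Fibroblast markers read low together with the fibrillar chains. Of 16 listed, 15 were tested and all 15 were below 0, with a median of -0.77 and 0 called, and 8 were lower on every FGFR1 KO array than on any WT array (background 2.50% of genes). Their median per array was -0.28, -0.88, -0.42 and -1.32 in FGFR1 KO 1 to 4, against 0.01, -0.02, 0.19 and 0.20 in WT 1 to 4. FGFR1 KO 4 was the lowest array here as on the type I, III, V and VI chains other than Col1a1. Lum, a proteoglycan that binds collagen fibrils, differed by -2.19 ± 0.44 (SE), and Dpt, a matrix protein, by -2.24 ± 0.48 (SE) with a probe in the bright area. The marker lists were also chosen with earlier results of these data known, so their counts are a description and no test. The part of fibroblast content in the collagen readings was not tested.

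Markers of other cells that can make collagen ran differently over the arrays. Endothelial markers, 12 of 12 tested with 11 below 0, had medians of 0.74, 0.38, 0.42 and 0.38 in FGFR1 KO 1 to 4, against 1.16, 1.01, 0.50 and 0.42 in WT 1 to 4, highest on WT 1 and WT 2. Pecam1, the vessel marker CD31, differed by -0.64 ± 0.16 (SE) and Eng, an endothelial TGF-beta coreceptor, by -0.46 ± 0.28 (SE), while Col4a1 and Col4a2 differed by 0.15 and 0.18. Adipocyte markers, 12 of 12 tested and all 12 below 0, had medians of 0.33, 0.22, 0.27 and 0.05 in FGFR1 KO 1 to 4, against 2.72, 3.80, 0.43 and 0.41 in WT 1 to 4, high on WT 1 and WT 2 only, and Pparg and Plin4 differed by -1.36 ± 0.50 (SE) and -1.61 ± 0.61 (SE). Basal and myoepithelial markers, 11 of 12 tested with 8 above 0, had a median difference of 0.22, with Krt15 at 0.68 ± 0.44 (SE) and Trp63 at -0.18 ± 0.14 (SE). Cartilage and bone markers, 10 of 12 tested with 7 below 0, had a median of -0.08, with Matn3 at -0.83 ± 0.29 (SE) and Runx2 at -0.38 ± 0.16 (SE). Leukocyte markers, 8 of 8 tested with 6 below 0, had a median of -0.30, with Cd79a at -1.07 ± 0.44 (SE) and Cd3e at -0.35 ± 0.22 (SE). In the luminal list, with 10 of 11 tested genes above 0 and a median difference of 1.56, Prlr, the prolactin receptor, and Gata3, a luminal transcription factor, differed by 2.70 ± 1.22 (SE) and 1.73 ± 0.83 (SE), with the FGFR1 KO medians overlapping those of WT. In the muscle list, with 11 of 12 below 0 and a median difference of -2.61, Myl1 and Tnnt3 differed by -3.12 ± 1.50 (SE) and -2.69 ± 1.65 (SE). No marker was called by limma over all probes.

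**Figure D5:**
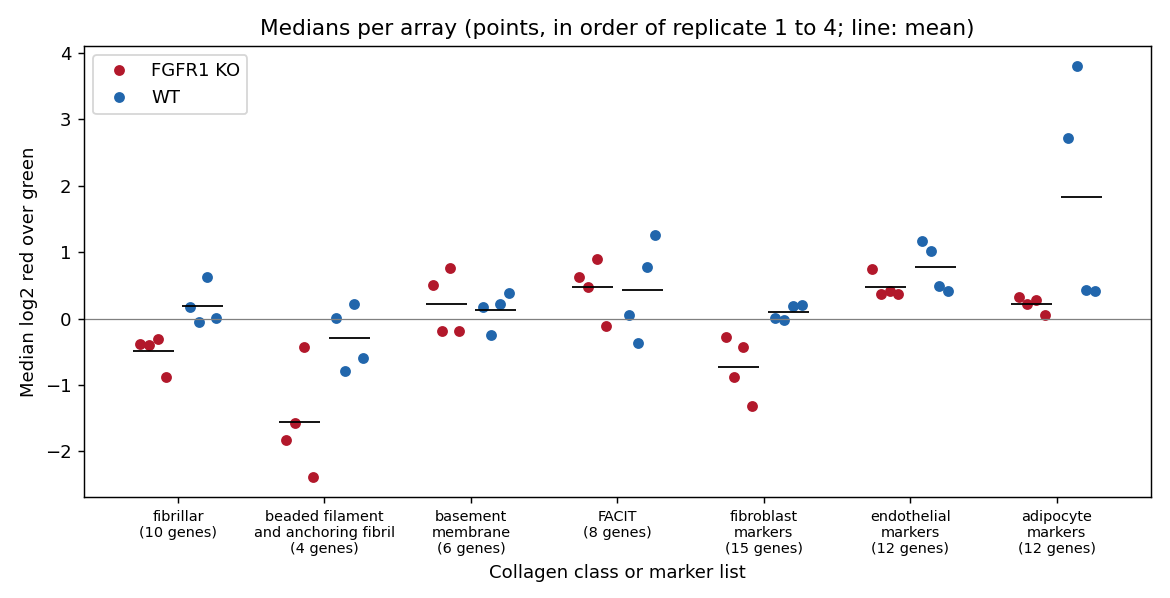
Median log2 red over green per array (points, replicates 1 to 4 from left to right; lines are group means) for 4 collagen classes and 3 marker lists, with FGFR1 KO left of WT. Fibrillar chains and fibroblast markers lie below the WT points on all 4 FGFR1 KO arrays, type IV and FACIT chains overlap, and adipocyte markers stand high on WT 1 and WT 2 only.

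Leaving out WT 1 and WT 2, the arrays high in fat and muscle markers, gave more chains below 0. Then 29 of 37 chains were below 0 with a median of -0.99, against 47.0% of genes, and 17 were lower at an unadjusted p under 0.05, against 4.45% of genes, with 0 called. On 14 chains every FGFR1 KO array was below both remaining WT arrays, against 6.92% of genes, a share that is itself higher with fewer arrays. Col1a1 then differed by -2.55, Col3a1 by -1.91 and Col6a1 by -1.56. Col11a1 turned to -1.44 and the basement membrane median to -0.06. With WT 2 alone left out, 11 chains did not overlap between the groups on the low side, against 4.15% of genes.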

How the data were processed

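Total RNA of 8 tumours was measured on 2-colour Agilent arrays, 1 per tumour. Per the file headers, the deposited median signal, median background and processed signal columns are intensity values read by Feature Extraction, the processed ones after background subtraction, detrending and dye normalization, and the deposited ratio is the log10 of red over green. The deposited series matrix holds log2 ratios of red to green, judged from its values. Its columns correlated at 0.985 to 0.991 with the ratios computed here, and its column medians, from -0.0152 to 0.0155, leave its centring unknown. The probes were designed on mm9, per the file headers.

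In R 4.3.3 with limma 3.58.1, median signals were corrected by normexp (offset 50) and loess within each array, with control and outlier spots at weight 0 and then left out, and spots of a probe were averaged. A probe was tested if its red signal was well above background on 4 or more of 8 arrays, with at least 3 values per group, as 39795 of 55681 were. Accessions were matched to symbols in the RefSeq gene table of GRCm38.p6, used for names and neighbours, which named 28331 probes. A gene was represented by its tested probe of highest mean red signal. Groups were compared by lmFit and eBayes as FGFR1 KO minus WT (two-sided, Benjamini-Hochberg over all probes, threshold 0.05). The fit was tested on simulated arrays. A probe could pass the filter through the FGFR1 KO arrays alone, and 14 tested chains were above background on fewer than 4 WT arrays. Precision is limited by the number of arrays. The members and lists were chosen with earlier results of these data known. All tested chains are named. Values on every array are given for the 2 chains of smallest p in each class and for types I, III, VI, VII, XV, XVII and XVIII with Col4a1 and Col4a2, and for marker and companion lists the 2 genes of smallest p are named. Same-numbered arrays correlated in their deviations from the group means at -0.04, 0.01, 0.11 and -0.11, so the numbers were not taken as pairs. Alternatives were other background, normalization, channel, filter, probe and eBayes choices, array weights, the replicate block and arrays left out.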

Additional observations from a re-analysis of the deposited data

Results flagged for a closer look

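Col5a2, the α2 chain of type V collagen, read -0.18, -0.10, -0.26 and -1.21 in FGFR1 KO 1 to 4, against 0.080, -0.40, 0.48 and 0.16 in WT 1 to 4. FGFR1 KO 4 stood apart from the other FGFR1 KO arrays, by 0.861 of the range of its group, above Dixon's 95% critical value for 4 arrays. Of 74 groups of 4 arrays examined, 1 did so, and chance gives about 1 in 20. Its probe lay in the bright area and was well above background on 2 of 4 WT arrays. The same array was the lowest on 18 of 37 chains.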

How the results depend on the processing

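Limma called 0 of the 37 chains in each of the 20 alternatives, and 21 of the 37 kept their sign in all in which they could be fitted, among them every chain of types I, III, V, VI and VII, Col12a1 and Col14a1. With the bright area left out, Col5a1, Col5a2, Col6a2 and Col6a3 could not be fitted. The others of these named chains lay outside the area, so that setting could not change their values and is no check on them. Over all probes, 4 were called with all spots and arrays, against 0 with Agilent's log ratio, red signal alone, median centring, probes above background on all 8 arrays, trend and robust eBayes, the bright area left out, the replicate block, or WT 1 and WT 2 left out, 139 without a background filter and 11 with array weights. With 1 array left out it was 0 to 1. Chains lower at an unadjusted p under 0.05 numbered 13 of 37, against 7 with Agilent's log ratio, 10 with red signal alone and 18 with array weights. They numbered 8 of 23 over probes above background on all 8 arrays, 6 of 27 without the bright area and 8 to 17 with 1 array left out. The share of all genes lower at that threshold was 4.78%, against 2.42% with Agilent's log ratio, 2.27% with red signal alone and 5.32% with array weights. It was 4.34% over probes above background on all 8 arrays, 2.10% without the bright area and 3.40% to 5.92% with 1 array left out. Chains higher at that threshold numbered 2, against 1 with median centring, array weights, the mean over probes, the replicate block or WT 1 and WT 2 left out, 0 over probes above background on all 8 arrays, and 1 to 3 with 1 array left out. The share of all genes was 3.10%, against 1.96% with median centring, 3.48% with array weights, 3.15% with the mean over probes and 2.75% with the replicate block. It was 2.07% without WT 1 and WT 2, 2.47% over probes above background on all 8 arrays, and 2.12% to 4.61% with 1 array left out. Chains without overlap on the low side numbered 3, against 0 with red signal alone, 1 over probes above background on all 8 arrays or without the bright area, 14 without WT 1 and WT 2, and 3 to 11 with 1 array left out, up to 10 without FGFR1 KO 3 and 11 without WT 2. The share of all genes without such overlap was 2.50% with all arrays, 6.92% without WT 1 and WT 2, 3.99% without FGFR1 KO 3, 4.15% without WT 2 and 3.52% to 4.75% over the arrays left out. It was 1.08% with red signal alone, 2.33% over probes above background on all 8 arrays and 1.07% without the bright area. On the high side, chains without overlap numbered 1, against 0 with the mean over probes or where all 8 arrays cleared background. With 1 array left out they numbered 1 to 3, the 3 being without FGFR1 KO 4 and 2 without WT 3. The share of all genes there was 1.85% with all arrays, 1.84% with the mean over probes and 1.49% where all 8 cleared background. With 1 array left out it was 2.95% to 5.46%, with 3.60% without FGFR1 KO 4 and 3.56% without WT 3. Chains below 0 numbered 26 of 37, against 17 of 23 above background on all 8 arrays (51.9% of genes there), 15 of 27 without the bright area (43.6%) and 22 of 37 with Agilent's log ratio (39.2%). The median over chains moved to -0.050 without the bright area and -0.99 without WT 1 and WT 2, the fibrillar median to -1.67 over 4 chains above background on all 8 arrays and -1.34 without WT 1 and WT 2, and the transmembrane median to 0.13 without the bright area. The sign turned with Agilent's log ratio for Col26a1 0.28, Col4a4 0.011, Col8a1 0.45 and Col9a3 1.43, with red signal alone for Col11a1 -0.18, Col11a2 0.12, Col26a1 0.084 and Col8a1 0.61, and with array weights for Col11a1 -0.19, Col17a1 -0.038, Col26a1 0.0028 and Col4a1 -0.013. With red signal alone the median of all genes was 0.10, against which Col26a1 lies below and Col11a2 close by. With Agilent's log ratio that median was 0.085, and Col4a4 lies below it. The sign turned without WT 1 and WT 2 for Col11a1 -1.44, Col17a1 -0.37, Col23a1 0.020, Col26a1 0.024, Col4a1 -0.10, Col4a6 -0.013 and Col9a2 -0.096, and for Col25a1 0.31 without the bright area, Col9a1 0.27 with the mean over probes and Col26a1 0.0036 with median centring. With 1 array left out, Col11a1 ran from -0.56 to 1.04, Col15a1 ran from -0.072 to 0.22, Col17a1 ran from -0.065 to 0.58, Col18a1 ran from -0.80 to 0.054, Col26a1 ran from -0.22 to 0.16, Col4a1 ran from -0.38 to 0.55, Col4a2 ran from -0.22 to 0.51 and Col8a1 from -0.77 to 0.27. Where no construction of the setting shows it, the cause was not tested. The replicate block, which is also the position along the slide row, changed no other call, and the numbers did not pair the arrays. Dim probes limit Col4a5, Col5a2, Col8a1, Col17a1, Col20a1, Col22a1, Col26a1 and Col27a1, above background on at most 2 WT arrays.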
